A study of Mus musculus with 2 samples.

Results

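A set of 10 cytokine receptor and feedback genes was followed across the T cell lineages of B16 melanoma: Il2ra, Il2rb and Il2rg, the chains of the interleukin-2 (IL-2) receptor; Il7r and Il4ra, which pair with the common γ chain; Il18r1 and Il1r2 of the IL-1 receptor family; and Socs1, Socs3 and Cish, which restrain signals from such receptors. They were chosen by name, as 10 of the 31053 mouse genes in the table, by a rule that uses no measured value of theirs, although earlier results of these data were known when the list was made. The cells came from 1 pool of sorted TCR-β+ T cells from B16 tumors, a transplantable mouse melanoma, and from B16–IL-33 tumors, whose cells were engineered to release IL-33, on day 9 after inoculation. Both kinds of tumor shared 1 gene expression library, read from the 5′ end of each transcript, and carried hashtag antibodies that named the tumor in a second library. All mice of the study were on the C57BL/6 background, the age and number of the animals behind this pool were not given in the sources used here, and a cell could be traced to a kind of tumor only by its tag.

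The library held 14035 barcodes and 43420305 unique molecular identifiers (UMIs, counts of distinct captured transcripts) of mouse genes. Barcodes with 200 to 2500 detected genes and under 5% mitochondrial UMIs were kept, which left 9078 cells and 26606999 UMIs. Lineage was read from each cell's own UMIs. CD8+ T cells were the 1260 cells with more UMIs of Cd8a and Cd8b1 than of Cd4 and Foxp3. Regulatory T (Treg) cells were the 2609 cells with Foxp3 and without CD8 genes, 504 of them with a UMI of Il1rl1, the IL-33 receptor. Conventional T (Tconv) cells were the 1769 cells with Cd4 and neither Foxp3 nor CD8 genes, and NKT cells were the 81 cells with Zbtb16, the transcription factor of natural killer T cells, again without Foxp3 and CD8 genes. The other 3380 cells entered no gate, with a median of 2006 UMIs against 2498 to 3462.5 in the gated lineages. These cells were shallower than the gated ones, and 85.8% of them had a UMI of a CD3 gene.

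CD3 genes were found in at least 97.3% of the cells of every gate. The NKT gate was less certain than its name: 21 of its 81 cells were also Tconv by the rule, and an alpha chain was listed for 27 NKT cells, of which 16 carried the invariant chain. The Tconv gate held no Foxp3 by construction, yet Ikzf2, a transcription factor of Treg cells, stood at 280 CPM (UMIs of a gene summed over the cells, per 1000000 mouse UMIs of those cells) there against 859 CPM in Treg cells. As a background for RNA outside T cells, 215 myeloid-like cells of the same library were used, which had at least 5 UMIs of myeloid genes and 0 UMIs of Cd3d, Cd3e and Cd3g. Summed myeloid markers stood at 213 to 532 CPM in the T cell gates and at 16341 CPM in these cells. With 1 pool in 1 gene expression library there were no replicate samples, so no test across animals was made: the intervals are 95% intervals of counting error only, and a gene was called higher or lower only when its CPM differed by at least 2-fold with at least 50 UMIs over both groups. Fewer transcribing cells and fewer transcripts per cell cannot be told apart in a summed CPM.

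IL-2 binds with high affinity to a receptor of 3 chains, of which the α chain captures the cytokine while the β and γ chains carry the signal through the kinases JAK1 and JAK3 to STAT5. Treg cells carry much α chain and depend on IL-2 made by other T cells, while IL-7, through its own receptor chain and the same γ chain, keeps resting T cells alive. CISH, SOCS1 and SOCS3 are induced by the STAT proteins and bind receptors or kinases to end the signal, and IL1R2 is a decoy that binds IL-1 without signaling.

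All 10 genes are protein coding in GENCODE vM21 on GRCm38, the mm10 build of the table. Il2ra lies on chromosome 2 from 11642807 to 11693193 on the plus strand and Il2rg on chromosome X from 101264378 to 101268255 on the minus strand. Il1r2 and Il18r1 stand on the plus strand of chromosome 1, from 40074079 to 40125231 and from 40465552 to 40500854, in a row of IL-1 receptor genes that also holds Il1rl1. The end of Il1rl1 and the start of Il18r1 were 136 bases apart, so the gene that splits the Treg cells is the direct neighbor of a gene measured in them. RefSeq promoter sequences, on GRCm38.p6, were at hand for 9 of the 10 genes. The 250 bases upstream of the start are shown for Il2ra and Il2rg, chains of one receptor whose levels varied most and little between lineages, and neither window overlapped an annotated exon. The window of Il2ra was chr2:11642542-11642791 on the plus strand, and that of Il2rg was chrX:101268256-101268505 on the minus strand, each written from 5′ to 3′.
Il2ra: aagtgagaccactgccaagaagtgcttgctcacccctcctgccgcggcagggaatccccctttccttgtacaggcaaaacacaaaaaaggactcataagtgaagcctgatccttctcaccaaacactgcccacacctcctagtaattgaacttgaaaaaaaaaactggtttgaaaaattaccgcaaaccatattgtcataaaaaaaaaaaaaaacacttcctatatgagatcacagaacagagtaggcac
Il2rg: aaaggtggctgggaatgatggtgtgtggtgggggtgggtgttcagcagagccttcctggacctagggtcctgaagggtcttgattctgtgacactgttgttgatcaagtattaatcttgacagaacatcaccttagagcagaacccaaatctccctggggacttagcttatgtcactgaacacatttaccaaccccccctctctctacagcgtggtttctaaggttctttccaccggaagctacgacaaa
The bases G and C made up 42.4% of the Il2ra window and 49.2% of the Il2rg window. The motif TTCNNNGAA, which reads the same on both strands and is the general form bound by STAT proteins, was in neither, so no letters are in capitals. It was found in 4 of the 11 windows of these genes, of which Il18r1 has 3, against 7.02% of the 32851 mouse promoter windows of the same length. Each of these 4 windows overlapped annotated exons, by 77 to 117 bases, and only 3 of the 11 windows did not. As 2 of the Il18r1 windows overlap each other, the 11 are not independent, and no enrichment was tested. The matches were TTCAGGGAA at 142 bases before the start of Il7r, TTCAAGGAA at 111 bases before that of Il1r2, and TTCTTAGAA at 154 bases before that of Socs3. Il18r1 held TTCTGGGAA and TTCCCAGAA upstream of 1 of its 3 listed starts. A match is a run of letters and does not show that a factor binds there.

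The IL-2 receptor chains separated the lineages mainly by the α chain. Il2ra stood at 720 CPM (95% interval 679 to 762) in Il1rl1+ Treg cells, 386 CPM (371 to 401) in Il1rl1- Treg cells, 112 CPM (103 to 122) in Tconv cells, 57.5 CPM (32.9 to 93.4) in NKT cells and, in CD8+ T cells, 54.8 CPM (48.6 to 61.7). Each step between neighbors lay outside counting error except the last, between NKT and CD8+ T cells; here and for the other genes, neighbors were compared with the Tconv cells without Zbtb16, so that no cell was in both. In myeloid-like cells Il2ra reached 23.9 CPM. After each cell of at least 1500 UMIs was thinned to 1500, a UMI of Il2ra was found in 53.7% of Il1rl1+ Treg cells and 32.5% of Il1rl1- Treg cells, against 9.47% of Tconv, 6.52% of CD8+, 3.8% of NKT and 1.91% of myeloid-like cells. Thinning left out 74 Il1rl1+ and 380 Il1rl1- Treg cells, 322 Tconv, 109 CD8+, 2 NKT and 58 myeloid-like cells. Without thinning, the shares were 68.3%, 49.8%, 16.5%, 13.9%, 12.3% and 5.12% in the same order, at median depths of 2850, 2772, 2498, 3462.5, 2939 and 3111 UMIs.

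The β and γ chains varied much less. Il2rb, shared with the receptor of IL-15, stood at 498 CPM (481 to 515) in Il1rl1- Treg cells and 405 CPM (375 to 437) in Il1rl1+ Treg cells. The Treg gate with more Il2ra thus had less summed Il2rb, which is not a statement about single cells. Its thinned shares were 48.3% (45.9% to 50.7%) in Il1rl1- and 46.7% (41.9% to 51.6%) in Il1rl1+ Treg cells. Among all thinned Treg cells, 423 had both Il2ra and Il2rb, against 380 expected if the genes were independent. NKT cells at 370 CPM did not differ beyond counting error from Il1rl1+ Treg cells or from CD8+ T cells at 368 CPM, and Tconv cells were lowest at 313 CPM (298 to 329). Il2rg, the γ chain shared by the receptors of several cytokines, was within counting error between Il1rl1- Treg cells at 629 CPM, Il1rl1+ Treg cells at 600 CPM and NKT cells at 589 CPM. Tconv cells at 525 CPM (505 to 546) were not beyond counting error from NKT cells, and CD8+ T cells were lowest at 391 CPM (374 to 409), below Tconv cells by more than counting error. Treg cells together, which were not neighbors of Tconv cells, had 1.19-fold more Il2rg than these (1.13 to 1.24). Both genes were lower in myeloid-like cells, with 70.3 CPM of Il2rb and 148 CPM of Il2rg. The thinned shares ran from 30.1% to 48.3% for Il2rb and from 43.6% to 59.5% for Il2rg in the T cell gates, against 7.64% and 17.8% of myeloid-like cells, and the shares without thinning from 46.2% to 67.1% and from 68.1% to 79.0% against 12.1% and 30.7%.

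The 3 chains were also read in the same cell. All 3 had a UMI in 75 of 430 thinned Il1rl1+ Treg cells, or 17.4%, and in 10.7% of 1725 Il1rl1- Treg cells, against 2.21% of 1447 Tconv cells and 1.65% of 1151 CD8+ T cells. In NKT cells the count was 0 of 79, and 3 counts in place of 0 would be a share of 3.8%. Il2rb and Il2rg without Il2ra, the combination of the intermediate-affinity receptor, were found in 10.2% of Il1rl1+ Treg cells, 19.9% of Il1rl1- Treg cells, 14.2% of Tconv cells, 17.0% of CD8+ T cells and 26.6% of NKT cells. The order for the 2-chain combination thus differed from that for all 3 chains. As the 2-chain combination leaves out cells with Il2ra by definition, this is not a result separate from the level of Il2ra. A chain without a UMI at this depth may still be transcribed, so these shares are of detected transcripts and not of receptor forms.

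**Figure D1:**
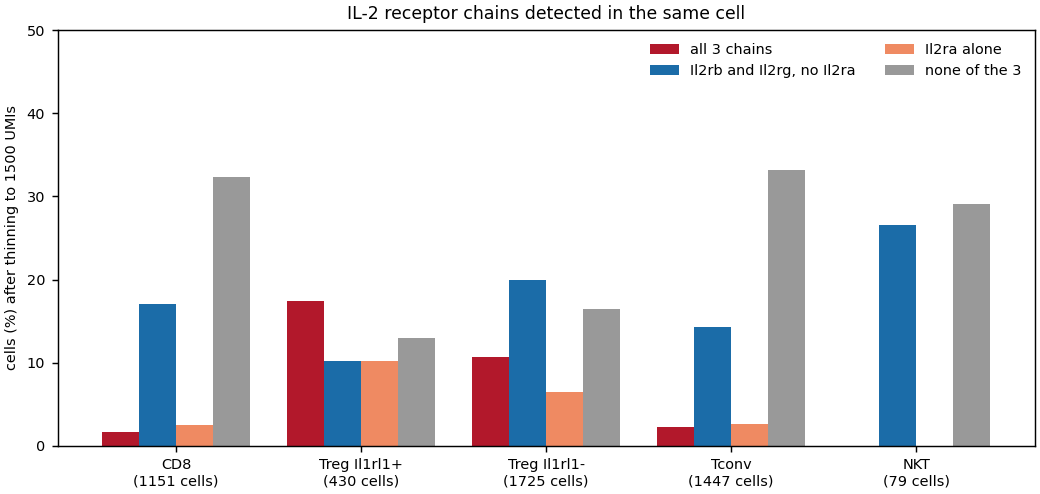
Percent of cells (y axis, linear from 0) of each T cell gate (x axis, with the number of cells) in which the named IL-2 receptor chains had a UMI after thinning to 1500 UMIs; bars are single shares of 1 pool without replicates. All 3 chains were detected in 17.4% of Il1rl1+ Treg cells and 10.7% of Il1rl1- Treg cells, and in at most 2.21% of the cells of the other gates.

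The other γ chain partners differed from each other, as Il4ra kept the order of Il2ra and Il7r did not. Il7r, the IL-7 receptor α chain, was highest in NKT cells at 424 CPM (351 to 508), then 334 CPM (319 to 351) in Tconv cells, 294 CPM (268 to 321) in Il1rl1+ and 289 CPM (276 to 302) in Il1rl1- Treg cells, and lowest in CD8+ T cells at 139 CPM (129 to 150). Only the neighboring Treg groups were within counting error of each other. After thinning, a UMI of Il7r was in 36.7% of NKT, 33.2% of Tconv, 30.2% of Il1rl1+ Treg, 29.6% of Il1rl1- Treg and 16.2% of CD8+ T cells, and without thinning in 29.1% to 56.8% of the cells of a gate. The myeloid-like cells stood above CD8+ T cells in CPM, at 203 CPM. Their thinned share of 23.6% (17.2% to 31.0%) overlapped in its interval with that of CD8+ T cells (14.2% to 18.5%). Whether Il7r in CD8+ T cells exceeds stray RNA was not tested, as myeloid-like cells may transcribe it themselves. Il4ra, the IL-4 receptor α chain, stood at 83.0 CPM in Il1rl1+ Treg, 71.3 CPM in Il1rl1- Treg, 57.4 CPM in Tconv, 53.9 CPM in NKT and 38.2 CPM in CD8+ T cells. Of the neighbors in that order, only Il1rl1- Treg and Tconv cells differed beyond counting error. CD8+ T cells, which were not neighbors of Tconv cells, had a ratio of 0.666 (0.552 to 0.802) to them. The level of Il4ra in myeloid-like cells was 85.4 CPM. The thinned shares of 5.82% to 13.5% in T cells did not exceed the 13.4% of myeloid-like cells by more than counting error. Neither they nor the unthinned 12.6% to 22.8%, against 21.4%, are read as expression above that of myeloid-like cells. Whether they exceed stray RNA was not tested, as myeloid-like cells may transcribe Il4ra themselves.

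Against Tconv cells, Il18r1 and Il1r2 of the IL-1 receptor family went in opposite directions in Treg and NKT cells, while both were lower in CD8+ T cells. Il18r1, the ligand-binding chain of the IL-18 receptor, stood at 212 CPM (161 to 273) in NKT cells, 92.4 CPM (84.2 to 101) in Tconv cells, 68.1 CPM (61.1 to 75.7) in CD8+ T cells, and 50.1 CPM and 47.0 CPM in Il1rl1- and Il1rl1+ Treg cells, which did not differ beyond counting error. In myeloid-like cells it had 8.79 CPM from 7 UMIs, and its thinned share of 7.65% to 22.8% in the T cell gates stood against 1.91% there (unthinned, 12.3% to 39.5% against 1.86%). Il1r2 was highest in Il1rl1- Treg cells at 98.4 CPM (91.0 to 106), followed by 81.2 CPM (68.0 to 96.2) in Il1rl1+ Treg, 43.8 CPM in Tconv and 23.2 CPM (19.1 to 27.8) in CD8+ T cells. NKT cells had 0 UMIs of Il1r2, with an interval that reached up to 13.3 CPM. Few cells carried it: 418 of 2609 Treg cells, 114 of 1769 Tconv cells and 71 of 1260 CD8+ T cells had a UMI, with up to 13 UMIs in a Treg cell and 14 in a Tconv cell. The decoy receptor was not particular to T cells, at 82.9 CPM in the myeloid-like cells, whose thinned share of 8.28% stood beside 7.91% in Il1rl1+ Treg, 10.0% in Il1rl1- Treg, 3.73% in Tconv and 2.26% in CD8+ T cells. The unthinned shares were 11.6% in myeloid-like cells and 5.63% to 16.5% in the T cell gates other than NKT cells.

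The feedback genes did not share an order. Cish, a STAT5 target, stood at 190 CPM (170 to 213) in Il1rl1+ Treg, 158 CPM (149 to 168) in Il1rl1- Treg, 97.0 CPM (88.6 to 106) in Tconv, 61.5 CPM (54.9 to 68.8) in CD8+ T cells and 35.9 CPM (17.2 to 66.1) in NKT cells. This was the order of Il2ra except that NKT and CD8+ T cells, which did not differ beyond counting error for either gene, changed places. Socs3, an inhibitor of receptors of the gp130 family, was instead highest in Tconv cells at 164 CPM (153 to 176), then 139 CPM (122 to 158) in Il1rl1+ Treg, 93 CPM (85.8 to 101) in Il1rl1- Treg, 76.8 CPM (69.3 to 84.8) in CD8+ T cells and 57.5 CPM (32.9 to 93.4) in NKT cells. Socs1, an inhibitor of JAK kinases, moved least of these 3 genes, from 172 CPM in Tconv cells through 158 CPM in NKT cells and 135 CPM and 133 CPM in Il1rl1- and Il1rl1+ Treg cells to 108 CPM in CD8+ T cells. The first 4 of these were each within counting error of the next. Gates that were not neighbors did differ, as Treg cells together had a ratio of 0.781 (0.714 to 0.854) to Tconv cells. In myeloid-like cells Cish stood at 27.6 CPM, Socs1 at 80.4 CPM and Socs3 at 203 CPM, so for Socs3 the background cells exceeded every T cell gate. After thinning, a UMI of Cish was in 6.33% to 27.2% of the cells of a T cell gate against 4.46% of myeloid-like cells, one of Socs1 in 15.8% to 22.8% against 10.2%, and one of Socs3 in 8.86% to 21.2% against 19.1%; the unthinned shares were 8.64% to 43.3% against 7.44%, 27.8% to 39.5% against 19.1%, and 16% to 30.4% against 31.6%. No T cell gate thus had a share of Socs3 above that of the myeloid-like cells by more than counting error, the 21.2% of Tconv cells (19.1% to 23.4%) included. The shares are not read as expression above that of myeloid-like cells. Whether they exceed stray RNA was not tested, as myeloid-like cells may transcribe Socs3 themselves.

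**Figure D2:**
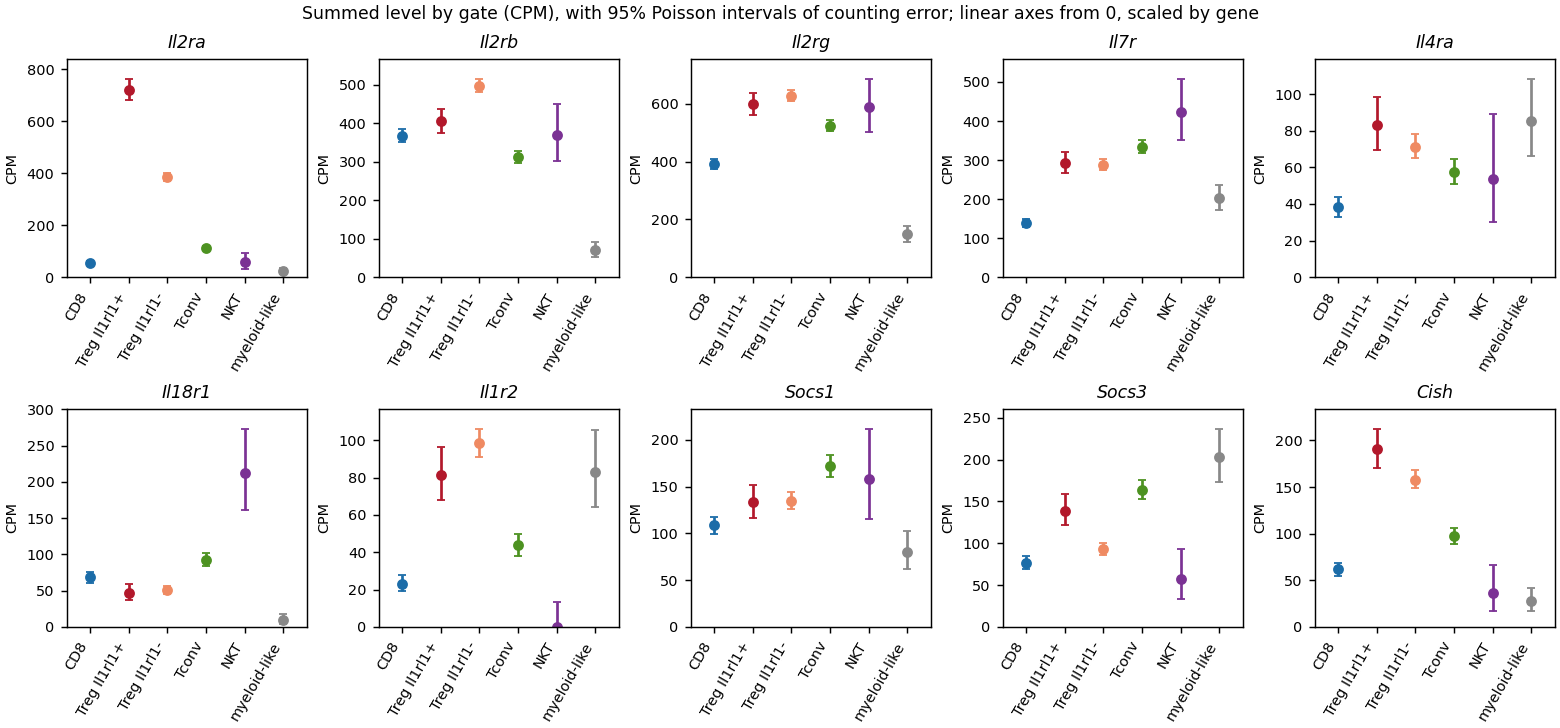
Level of each of the 10 genes in CPM (y axis, linear from 0 and scaled for each gene) in CD8+, Il1rl1+ Treg, Il1rl1- Treg, Tconv, NKT and myeloid-like cells (x axis); points are sums over the cells of 1 pool and bars are 95% Poisson intervals of counting error. Il2ra and Cish fall from Il1rl1+ Treg to Il1rl1- Treg, Tconv and CD8+ T cells, Il18r1 peaks in NKT cells at 212 CPM, and Il1r2 is at 0 in NKT cells.

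Treg cells were compared with Tconv cells to ask which receptor genes set the lineages of CD4+ T cells apart. Il2ra was 4.03-fold higher in Treg cells (3.68 to 4.41; 3737 against 564 UMIs) and Il1r2 2.17-fold higher (1.86 to 2.53; 785 against 220 UMIs). These 2 of 10 genes were called higher, against 4.38% of the 9277 genes tested, and none was called lower, against 2.07%. Cish at 1.70-fold (1.53 to 1.88) and Il2rb at 1.53-fold (1.44 to 1.62) were higher by less than 2-fold. Il18r1 at 0.536 (0.468 to 0.613), Socs3 at 0.623 (0.565 to 0.687), Socs1 at 0.781 and Il7r at 0.866 were lower. The median log2 ratio was 0.30 over the 10 genes and 0.09 over all genes tested. The Tconv cells were not uniform in Il2ra and Il1r2. In the 645 Tconv cells with a UMI of Ikzf2 or Il1rl1, Il2ra stood at 242 CPM and Il1r2 at 71.4 CPM, and in the other 1124 Tconv cells at 34.7 CPM and 27.4 CPM. Against those 1124 cells alone the ratio of Il2ra was 13.0 and that of Il1r2 was 3.47. The call of Il1r2 was narrow: its ratio was 1.92 at a mitochondrial limit of 10% and 1.95 when CPM left out ribosomal, mitochondrial and TCR genes, a scaling under which Il18r1 at 0.482 passed 2-fold and 3.19% of all genes were higher and 2.93% lower. B cell markers summed to 436 CPM in Treg and 171 CPM in Tconv cells, and their part in these ratios was not tested.

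Of 58 other genes of the same pathways, 48 were tested in this comparison, 2 were called higher and 5 lower, with a median log2 ratio of 0.22. Of the ligands, 3 of the 4 tested were lower. Il1b was 2.58-fold higher, but 66 and 52 of its 208 UMIs in Treg cells came from single cells, and it stood at 589 CPM in the myeloid-like cells. Il2 was at 2.66 CPM in Treg and 12 CPM in Tconv cells, or 4.49-fold lower. The other lower ligand with a signal spread over cells was Il4, at 2.54 CPM and 10.6 CPM, or 4.15-fold lower. Il13 was 4.24-fold lower, but 91 of its 139 UMIs in Tconv cells came from 1 cell. Among genes that respond to IL-2 and STAT5, Bcl2, an inhibitor of cell death, was 3.63-fold lower, Pim2, a survival kinase, stood at 0.311, and Gzmb, which encodes granzyme B, was 3.36-fold higher in Treg cells. None of the 18 other receptors tested, the 11 kinases and STATs and the 7 other feedback genes was called.

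Treg cells with and without Il1rl1 were compared because IL-33 acts through this receptor. None of the 10 genes was called in either direction, where 0.776% of the 8377 genes tested were higher and 2.44% lower. Il2ra came closest, at 1.86-fold (1.74 to 2.0) higher in Il1rl1+ Treg cells. Socs3 was 1.5-fold (1.28 to 1.75) and Cish 1.21-fold (1.06 to 1.37) higher, while Il2rb at 0.814 (0.748 to 0.885) and Il1r2 at 0.825 (0.679 to 0.996) were lower. The interval of Il1r2 nearly reached 1, and its thinned shares of 7.91% (5.54% to 10.9%) and 10.0% (8.65% to 11.5%) overlapped. The variance of its thinned counts was 1.65 and 1.67 times their mean, a spread beyond counting error that the interval leaves out. Il2rg, Il7r, Il4ra, Il18r1 and Socs1 had intervals that held 1. The median log2 ratio was 0.0041 over the 10 genes and -0.0046 over all genes tested. Il2ra lay near the limit: its ratio was 2.03 with no upper limit on detected genes and 1.47 among T cells with a CD3 UMI and no marker of other cell types. Summed myeloid markers stood at 213 CPM in Il1rl1+ and 430 CPM in Il1rl1- Treg cells, and B cell markers at 574 and 402 CPM; their part in these ratios was not tested. Both kinds of tumor were mixed in this split. By hashtag, Il2ra in B16 cells stood at 274 CPM (150 to 459) in 12 Il1rl1+ and 221 CPM (192 to 255) in 233 Il1rl1- Treg cells. In B16–IL-33 cells it stood at 1147 CPM (823 to 1555) in 13 and 475 CPM (369 to 601) in 42. The part of the tumor in these ratios was not tested.

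Within the same 504 cells, 4 of the 46 other pathway genes tested were higher and none was lower. Il18rap, the signaling chain that pairs with Il18r1, was 2.98-fold higher (2.21 to 4.0; 49.5 against 16.6 CPM) and was found in 70 of the 504 cells, although Il18r1 itself stood at 0.938 (0.722 to 1.21). Il9r, the IL-9 receptor, was 3.18-fold higher with 22 and 28 UMIs. Il13 had 50 UMIs in 5 cells, 24 of them in 1 cell, against 4 UMIs in Il1rl1- Treg cells. Il1b had 77 UMIs in 2 cells, 66 of them in 1 cell, and stood at 589 CPM in the myeloid-like cells. Il13 and Il1b thus rested on few cells, while Il18rap and Il9r had at most 3 UMIs in any 1 Il1rl1+ Treg cell.

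CD8+ T cells were compared with the same Tconv cells, so this comparison shares its reference with the one of Treg cells. All but Il2rb, at 1.17-fold (1.1 to 1.26) higher, were lower in CD8+ T cells, although Il1r2, at 0.528 (0.419 to 0.664), stood at 1.19 with no upper limit on detected genes. Il7r at 0.415 (0.380 to 0.454), Socs3 at 0.468 (0.414 to 0.529) and Il2ra at 0.488 (0.421 to 0.564) were called, 3 of 10 genes, against 3.25% of the 8647 genes tested, and none was called higher, against 2.01%. The median log2 ratio of -0.66 stood below that of all genes tested, -0.12. Once ratios were centred on the median gene, Il7r at 0.453 was past 2-fold while Socs3 stood at 0.511 and Il2ra at 0.532, and 2.59% of all genes were then higher and 2.41% lower. The call of Il2ra depended on the reference: against the 1124 Tconv cells without Ikzf2 and Il1rl1, Il2ra was 1.58-fold higher in CD8+ T cells. Among the other pathway genes, Gzmb was the 1 of 47 tested that was higher, at 2.68-fold, and 6 were lower. The lower genes were Socs2, a feedback gene, at 7.92 against 28.7 CPM, Il6ra, the IL-6 receptor, at 16.8 against 46.8 CPM, Ifngr2, a chain of the interferon-γ receptor, at 5.54 against 15.5 CPM, Il2 at 2.97 against 12 CPM, and 2 further ligands. Il4 had 5 and 53 UMIs, and the 5 UMIs of Il13 stood against 139 in Tconv cells, most of them from 1 cell.

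NKT cells were compared with the 1748 Tconv cells without Zbtb16, which again are nearly the same reference cells. Il18r1 was 2.33-fold higher (1.74 to 3.06; 59 and 450 UMIs), the only 1 of 10 genes called higher, against 3.33% of the 7197 genes tested. Il1r2, with 0 and 220 UMIs, was 4.13-fold lower with the floor of 3 UMIs put in for NKT cells. The interval of its ratio reached up to 0.300. Socs3 was 2.88-fold lower and Cish 2.72-fold lower, from 16 and 10 UMIs in NKT cells. These 3 genes called lower stood against 11.3% of all genes tested. The signal of Il18r1 was spread over 32 of the 81 cells, with at most 6 UMIs in 1 cell. When NKT cells were instead taken as the 59 cells with the invariant chain, Il18r1 was 1.43-fold higher and not called, while Il2ra stood at 0.0443 and Cish at 0.101. These last ratios rested on few UMIs, and no interval was computed for them. Of the cells with this chain, 16 were in the Zbtb16 gate and 17 in the Tconv gate, and a cell could be in both. With no upper limit on detected genes Il18r1 was 1.99-fold higher, again not past 2-fold, and Il2ra stood at 1.08. Of 44 other pathway genes tested, 2 were higher and 7 lower. Il12rb2, a chain of the IL-12 receptor, was 2.09-fold higher (1.11 to 3.64) from 14 UMIs. Il4, a cytokine of NKT cells, was 10.7-fold higher (6.52 to 17.3; 104 against 9.72 CPM) and was found in 20 of the 81 cells. Il6st, the gp130 chain, had a ratio of 0.233 (0.0478 to 0.691) and Irf4, a factor induced by receptor signals, one of 0.246 (0.0504 to 0.730), each from 3 UMIs in NKT cells. Il2 had 1 UMI there, with a ratio of 0.296 (0.00737 to 1.71), and Il13 had 0 UMIs.

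**Figure D3:**
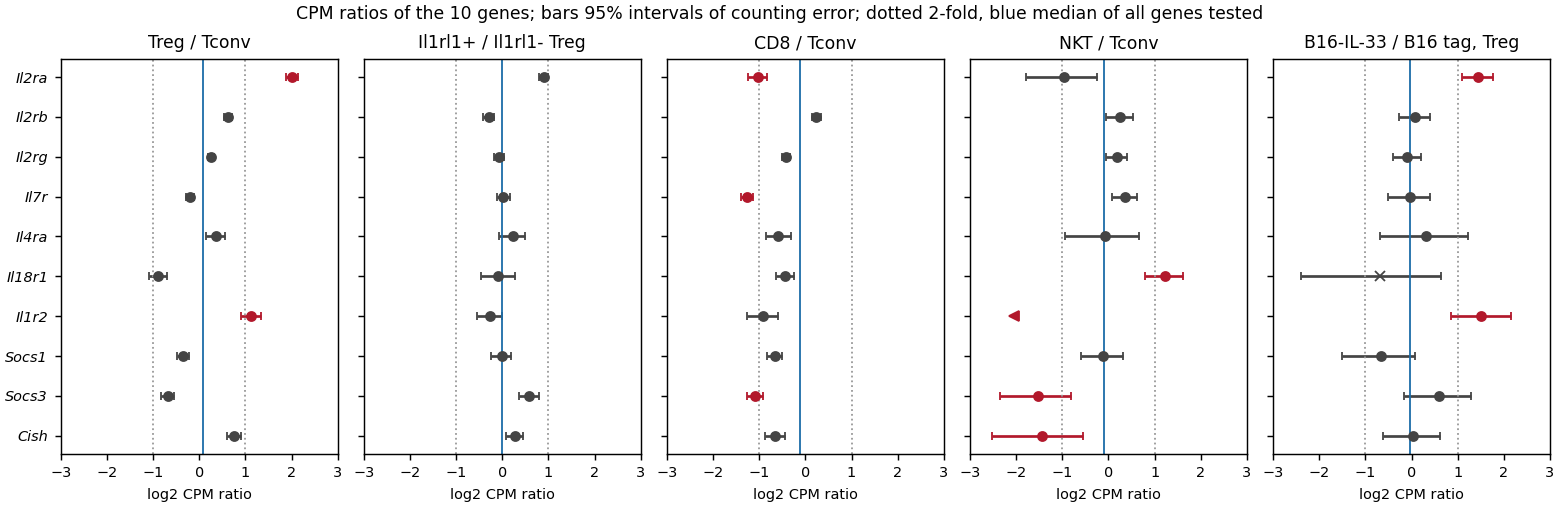
Log2 ratio of CPM (x axis) of each of the 10 genes (y axis) in 5 comparisons, with 95% intervals of counting error; red marks genes past 2-fold (dotted lines), the arrow a bound set by 0 UMIs, the cross a gene with under 50 UMIs, and the blue line the median of all genes tested. Il2ra is 4.03-fold higher in Treg than in Tconv cells and none of the 10 passes 2-fold between Il1rl1+ and Il1rl1- Treg cells.

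Within lineages the same genes followed the state of the cell. CD8+, Treg and Tconv cells were split by Tcf7 or Ccr7, which mark naive and central memory T cells; by a UMI sum of at least 3 over cell cycle genes; and by the size of the T cell clone, with at least 2 cells of the lineage for an expanded clone. In the 505 central CD8+ T cells, Socs3 stood at 122 CPM against 43.5 CPM in the other 755, Il7r at 212 against 84.5 CPM, Socs1 at 149 against 78.0 CPM and Il4ra at 52.0 against 27.9 CPM. The central cells were deeper in each lineage, with medians of 3850 against 3107 UMIs in CD8+, 3634 against 2658 in Treg and 2794.5 against 2147 in Tconv cells, and the part of depth in these ratios was not tested. Socs3 and Socs1 were higher in the central cells of all 3 lineages, with ratios of 2.80, 1.63 and 1.76 for Socs3 and 1.92, 1.37 and 1.60 for Socs1 in CD8+, Treg and Tconv cells. Il2ra was lower in central cells in each, with ratios of 0.556, 0.558 and 0.213, and so were Cish at 0.647, 0.583 and 0.534, Il2rb at 0.740, 0.705 and 0.464, and Il1r2 at 0.183, 0.586 and 0.609. For Il7r the ratio of 2.51 in CD8+ T cells stood beside 1.1 in Treg cells, whose interval held 1, and 1.16 in Tconv cells. Il18r1 was higher in central Treg cells, at 1.54 (1.22 to 1.93), and its intervals held 1 in CD8+ and Tconv cells; whether the lineages differ was not tested. Among Tconv cells Il2ra stood at 39.6 CPM in central and 186 CPM in other cells.

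Cycling cells, 148 CD8+, 161 Treg and 70 Tconv cells, were deeper than the other cells, with medians of 6810.5, 5585 and 5403 UMIs against 3143.5, 2693.5 and 2459. Il7r was lower in them in every lineage, with ratios of 0.265, 0.466 and 0.214 in CD8+, Treg and Tconv cells, and so were Socs3 at 0.268, 0.349 and 0.516 and Socs1 at 0.509, 0.619 and 0.307. Il1r2 was higher in cycling CD8+ T cells, at 1.88-fold (1.24 to 2.81), and in cycling Treg cells, at 1.43-fold (1.16 to 1.74). Il2ra was 1.90-fold higher (1.46 to 2.45) in cycling Tconv cells. In cycling CD8+ and Treg cells its CPM ratios were 0.706 and 0.837, but its thinned shares went the other way, at 6.90% against 6.46% and 41.4% against 36.3%, so no order is read there. The γ chain Il2rg was lower in cycling CD8+ and Treg cells, at 0.681 and 0.772, while its interval held 1 in Tconv cells. The part of depth in these ratios was not tested. The thinned shares went the same way for Il7r in CD8+ T cells, at 4.14% of cycling and 18.0% of other cells.

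Among CD8+ T cells, 200 cells belonged to 73 expanded clones and 721 to clones of 1 cell. Il7r stood at 32.3 CPM in expanded clones and 154 CPM in single-cell clones, a ratio of 0.209 (0.141 to 0.301). Socs3 at 0.330 (0.210 to 0.499), Il4ra at 0.400 (0.217 to 0.685) and Socs1 at 0.554 (0.417 to 0.724) were lower too, whereas Il1r2 was 2.68-fold higher (1.77 to 4.03; 45 and 56 UMIs). These UMIs of Il1r2 came from 17 of the 73 clones, and 24.4% of them from 1 clone. Il18r1 was 1.33-fold higher (1.01 to 1.74). The IL-2 receptor genes Il2ra, Il2rb and Il2rg and the feedback gene Cish had intervals that held 1. In Treg cells, 98 cells of 46 expanded clones showed ratios of 0.744 (0.575 to 0.949) for Il7r and 1.40 (1.01 to 1.88) for Il1r2, and the intervals of the other 8 genes held 1. In Tconv cells, with 63 cells of 27 expanded clones, Il2ra had 8 UMIs, 5 of them from 1 clone, and Il1r2 had 1 UMI, while Il18r1 had a ratio of 1.64 (1.09 to 2.40) and Socs1 one of 0.622 (0.395 to 0.933).

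**Figure D4:**
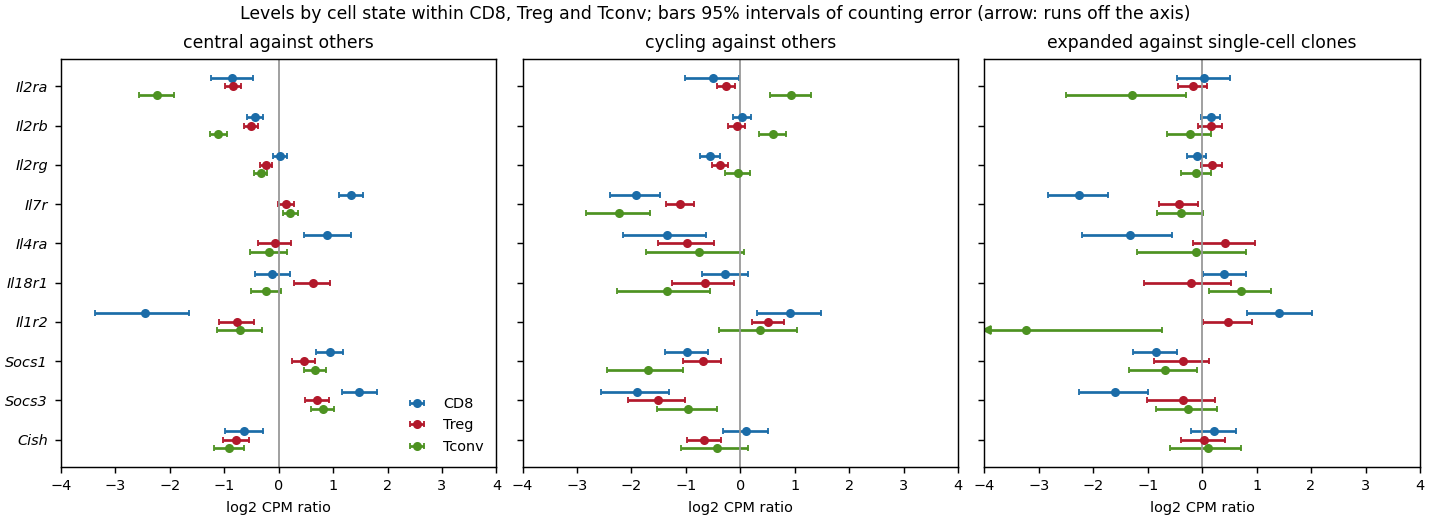
Log2 ratio of CPM (x axis) of each gene (y axis) between cell states within CD8+, Treg and Tconv cells, with 95% intervals of counting error. In the left panel (cells with Tcf7 or Ccr7 against the others) Socs1 and Socs3 lie to the right of 0 and Il2ra, Il2rb, Il1r2 and Cish to the left in all 3 lineages; in the middle panel (cycling against other cells) Il7r, Socs1 and Socs3 lie to the left.

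Detection in the same thinned cell was compared with the count expected if 2 genes were spread over the cells of a lineage independently, as a description of sparse counts. Over the 45 pairs of the 10 genes in Treg cells the ratio of observed to expected cells ran from 0.413 to 1.30, with a median of 1.06. The lowest was Il1r2 with Socs3, found together in 11 cells against 26.6 expected, and the next was Il1r2 with Il4ra, in 14 cells against 23.5. The highest were Socs1 with Socs3, in 63 cells against 48.3, and Il2ra with Il1r2, in 99 cells against 76.0. Il2ra and Cish were found together in 218 cells against 184 expected in Treg cells and in 32 against 18.4 in Tconv cells. Il2rb accompanied Il2ra in 423 Treg cells against 380 expected and in 58 Tconv cells against 41.2 expected, but in 31 CD8+ T cells against 30.2. Il2rg, in 473 Treg cells against 468 and 73 Tconv cells against 69.2, was close to the expectation. The Tconv cells were not uniform in Il2ra, and the part of this in their counts was not tested. Of 1151 CD8+ T cells, 6 had both Il18r1 and Socs3 where 13.0 were expected.

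The genes whose level followed a member most closely were sought over 8 disjoint groups of T cells, namely CD8+, Il1rl1- Treg and Tconv cells without Zbtb16, each split by Tcf7 or Ccr7, and the Il1rl1+ Treg cells and the NKT cells. The ranking used Pearson's r on log2(CPM + 1) for the 5100 genes whose mean level reached 20 CPM. The closest pair of genes was Tnfrsf1b and M6pr for Il2ra (r of 0.992 and 0.985), Pdzd11 and Fam162a for Il2rb (0.984 and 0.979) and Lats2 and Psenen for Il2rg (0.992 and 0.979). It was Klhl24 and Ldb1 for Il7r (0.992 and 0.983), Ypel3 and Slc43a2 for Il4ra (0.977 and 0.972), Usp24 and Galnt10 for Il18r1 (0.976 and 0.962) and Top1 and Abhd12 for Il1r2 (0.990 and 0.988). For the feedback genes it was Tpt1 and St6gal1 for Socs1 (0.977 and 0.975), Ssh2 and Rapgef6 for Socs3 (0.976 and 0.967) and Gm2a and Aebp2 for Cish (0.997 and 0.996). All of these points came from 1 library, and with 8 groups and 5100 genes such values are a ranking and not a measure of association.

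B16–IL-33 and B16 tumors were compared in Treg cells by their hashtags. Only 939 of the kept cells could be given a tumor, by at least 1 tag UMI with all of them from tags of 1 tumor, and the tag library held 1730 tag UMIs over all barcodes. Of the Treg cells, 55 were given to B16–IL-33 tumors and 245 to B16 tumors, all were in 1 pool, and the tag rule was chosen after an earlier look at these data. In Treg cells of B16–IL-33 tumors Il2ra had 110 UMIs, or 607 CPM, and in those of B16 tumors 211 UMIs, or 224 CPM, which is a 2.71-fold difference (2.13 to 3.43). Il1r2 had 33 UMIs, or 182 CPM, in 14 cells and 60 UMIs, or 63.8 CPM, in 32 cells, which is a 2.86-fold difference (1.81 to 4.44). These 2 of the 9 genes tested were called higher, against 2.59% of the 3017 genes tested, and none was called lower, against 4.64%. Il18r1, with 5 and 42 UMIs, had too few to be tested. The intervals of the other 7 genes held 1.

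Each kind of tumor had a pair of numbered tags, which were read apart; whether the numbers mark separate tumors or animals was not given in the sources used here, so the tags are not treated as replicates. Il2ra stood at 197 and 239 CPM for the B16 tags numbered 1 and 2 and at 577 and 619 CPM for the B16–IL-33 tags, without overlap. Il4ra, at 53.6 and 53.7 against 79.7 and 68.8 CPM, and Il18r1, at 63.6 and 37.4 against 19.9 and 30.6 CPM, did not overlap either, from few UMIs. The tags of the other members overlapped. The share of all genes without overlap was not computed, so the separation of Il2ra is not read as support. One cell of the second B16–IL-33 tag held 24 of the 81 UMIs of Il2ra of that tag. Il1r2 stood at 60.2 and 68.4 CPM for the B16 tags but at 59.7 CPM, from 3 UMIs, and 229 CPM, from 30 UMIs in 11 cells, for the B16–IL-33 tags. Its difference thus rested on 1 of the pair: with the tags numbered 1 alone the ratio was 0.992. Il7r differed between the B16 tags themselves, at 428 and 226 CPM, by more than it did between the tumors, at 282 and 289 CPM.

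The share of Il1rl1+ cells differed between the tagged groups, with 13 of the 55 and 12 of the 245 Treg cells, and Il2ra was higher in such cells. Cells without a UMI of Il1rl1 may still transcribe it at this depth, and the part of these cells in the ratios was not tested. Among Il1rl1- Treg cells alone, 42 and 233 cells, Il2ra was 2.14-fold higher (1.61 to 2.83) in those of B16–IL-33 tumors and Il1r2 2.39-fold higher (1.41 to 3.92). Among Il1rl1+ Treg cells, Il2ra stood at 1147 CPM from 41 UMIs and 274 CPM from 14 UMIs, and 24 of the 41 came from 1 cell. In Tconv cells, 17 against 164 cells, the ratio of Il2ra was 3.04 (1.5 to 5.74), from 13 UMIs in 5 cells of which 1 held 9. In CD8+ T cells Il2ra had 0 UMIs in the 19 tagged cells of B16–IL-33 and 24 UMIs in the 103 of B16 tumors, and Socs1 had 3 and 69 UMIs, a ratio of 0.213 (0.0428 to 0.648). None of these differences was tested against the spread between animals, which the single pool does not give.

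**Figure D5:**
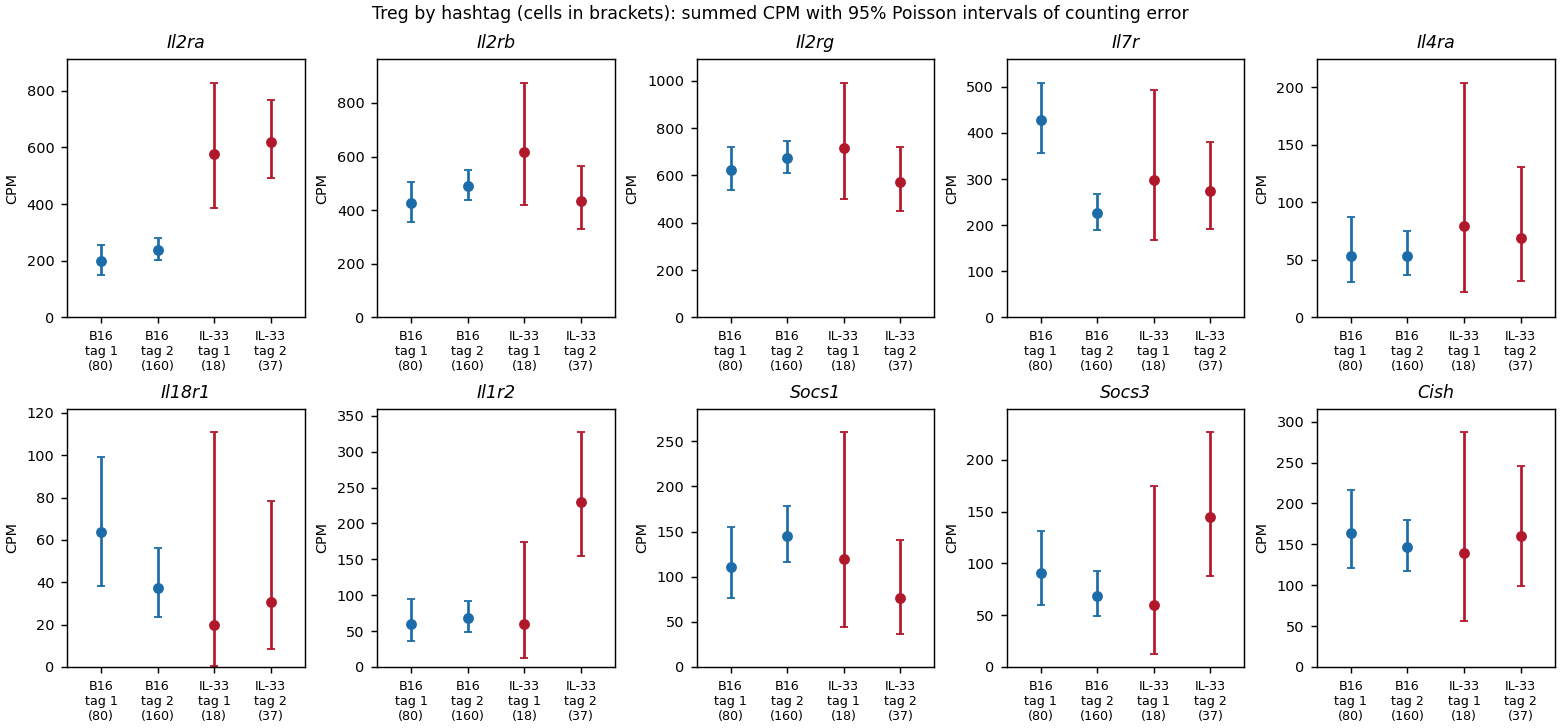
CPM (y axis, linear from 0 and scaled for each gene) of the 10 genes in Treg cells of each of the 4 hashtags (x axis, number of cells in brackets), blue for B16 and red for B16–IL-33; bars are 95% Poisson intervals of counting error. Il2ra lies at 197 and 239 CPM for the B16 tags and at 577 and 619 CPM for the B16–IL-33 tags, whereas Il1r2 is high for the second B16–IL-33 tag alone.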

How the data were processed

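The authors deposited the gene expression and hashtag libraries as raw counts of UMIs per feature and cell barcode, aligned to mm10 with the human genes of a combined reference; the submitters' processing notes name Cell Ranger 6.1.1 and the header of the deposited count matrix 3.1.0. The tool that counted the tags was not given in the sources used here. The TCR table held assembled chains per barcode. From 14035 barcodes, cells were kept by the limits of the study's methods, 200 to 2500 detected genes and under 5% mitochondrial UMIs, and gated by their own UMIs without clustering. No doublet caller was run, and an alternative dropped the 428 cells that had 2 or more productive beta chains. The gene expression and hashtag libraries shared 11756 barcodes.

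UMIs were summed over the cells of a gate and divided by all mouse UMIs of those cells (CPM). Poisson, Clopper-Pearson and conditional binomial intervals at 95%, in SciPy 1.17.1 (Python 3.11.15, NumPy 2.4.6, pandas 2.3.3, matplotlib 3.10.9), cover counting error only. Ratios were computed for all mouse genes with at least 50 UMIs over both groups. Where a count was 0, 3 counts were put in its place for the ratio, which lies below the upper end of the 95% interval. For shares, each cell was thinned once to 1500 UMIs with a fixed seed. There were no replicate samples, hence no p-values. The code was tested on simulated data. The members and gene lists were chosen with earlier results of these data known. All 10 members were named in each comparison, with up to 5 other pathway genes of the largest ratio past 2-fold and the 2 genes closest in pattern to each member. Il1b, Pim2, Il6ra, Il12rb2 and, in CD8+ T cells, Gzmb were named after their values were seen. Alternatives were other limits on cells and counts, stricter gates, other scalings, single tags, invariant chains for NKT cells, and, added after the data were seen, leaving out the cell of most UMIs.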

Additional observations from a re-analysis of the deposited data

How the results depend on the processing

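The number of the 10 genes past 2-fold was recomputed under 67 alternatives over 5 comparisons and stayed within 1.5 times of the reported number in 54. This counts the total only and not which genes were called or in which direction. With NKT cells by invariant chain, for example, 0 were higher and 4 lower in place of 1 and 3. Without ribosomal, mitochondrial and TCR genes, 1 was higher and 1 lower in Treg against Tconv cells in place of 2 and 0. For Treg against Tconv cells, where 2 genes were called, 1 was called at a mitochondrial limit of 10% and 6 at 1.5-fold. For Il1rl1+ against Il1rl1- Treg cells, where 0 were called, 1 was called with no upper limit on detected genes, in cells of at least 2500 UMIs, with gates of 2 UMIs and at 1.5-fold. For CD8+ against Tconv cells, where 3 were called, 1 was called with ratios centred on the median gene and 7 at 1.5-fold. For NKT against Tconv cells, where 4 were called, 2 were called with gates of 2 UMIs, which left 11 NKT cells. For Treg cells by tumor tag, where 2 were called, 1 was called with the tags numbered 1, with T cells that had a CD3 UMI and no marker of other cells, and with at least 200 UMIs, and 4 at 1.5-fold. A called ratio changed direction in 3 cases: Il2ra in CD8+ against Tconv cells was 1.58 with Tconv cells without Ikzf2 or Il1rl1, Il1r2 in Treg cells by tag was 0.992 with the tags numbered 1, and Il1r2 in NKT against Tconv cells was 1.13, the floor of 3 UMIs over few cells, with gates of 2 UMIs. Of the ratios that were not called, Il1r2 in CD8+ against Tconv cells went from 0.528 to 1.19 and Il2ra in NKT against Tconv cells from 0.513 to 1.08 with no upper limit on detected genes. The cause of these changes was not tested. Leaving out the ribosomal, mitochondrial and TCR genes moved the median log2 ratio of all genes in Treg against Tconv cells from 0.09 to -0.06. Leaving out the cell of most UMIs in each group moved none of the 50 ratios by over 1.5 times. No paired analysis was possible because the pool has 1 gene expression library and the groups are gates on its cells. Depth limits the values of NKT cells, with 81 cells, and of tagged cells.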
